A study of Homo sapiens with 29 samples.

Results

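Protein-coding genes were sorted by whether the chromatin remodeler INO80 or the transcription factor YY1 had a peak at a start of the gene in HepG2 cells. A gene counted for a factor when a peak of its list came within 1000 bp of a start of any basic protein-coding transcript in GENCODE release 44 on hg19. Of 19785 genes, 11219 had both factors, 1386 had INO80 alone, 1162 had YY1 alone and 6018 had neither. Those classes make up 56.7%, 7.01%, 5.87% and 30.4% of all genes, and each share below is read against these.

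The study mapped the INO80 complex by chromatin immunoprecipitation and sequencing (ChIP-seq) in HepG2 and Huh7, both human liver cancer cell lines. In HepG2 the labels give 3 libraries for INO80 (from 2 lots of antibody) and 2 each for MCRS1, RUVBL1 and RUVBL2. In Huh7 they give 2 each for INO80, MCRS1, RUVBL2 and YY1. Every line had 2 input libraries, the cells were untreated and fixed in 0.3% formaldehyde for 30 min, and the cultures had been passaged fewer than 10 times. YY1 in HepG2 has no library here: its list was made from ENCODE reads by the submitters' own steps, so a difference between INO80 and YY1 in HepG2 cannot be told apart from one between cultures, laboratories or depths. Each factor has 1 list per line, with positions and no heights, so no share has a replicate error and the depth behind a peak is unknown. Intervals given with shares are 95% Wilson intervals, and those of a difference are 95% Newcombe intervals. They cover the counting of genes, and genes that share a start region are not independent.

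INO80 is the ATPase of a large complex that slides nucleosomes next to promoters, and MCRS1 is a subunit of that complex. RUVBL1 and RUVBL2 are ATPases that several chromatin complexes share. YY1 is a zinc finger protein that reads a short DNA motif, can activate or repress, is found in the human INO80 complex, and is known to act at housekeeping promoters. Liver cells depend on a second kind of gene, the secreted plasma proteins and metabolic enzymes, whose promoters are often poor in CpG.

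Start regions of 6 genes are printed as examples and do not stand for their classes. They are the 2 genes with the widest peaks in each bound class, taken with a YY1 core motif where the class has YY1. That motif was in the start window of 11.6% of genes with both and 5.16% of YY1-alone genes. Each is shown 5′ to 3′ from 250 bases before the reference start of the gene through the 50 bases from it, on hg19. For genes with both factors and with YY1 alone, capitals mark the YY1 core motif, GCCATNTT or AANATGGC on the other strand. For the genes with INO80 alone, which hold no such motif in the windows shown, capitals mark each CpG. CpG is not marked in the other windows, which hold 32 (MGME1), 2 (ANG), 19 (CATSPERG) and 24 (CCDC186).
Both factors, MGME1 (chr20:17949411-17949710, strand +): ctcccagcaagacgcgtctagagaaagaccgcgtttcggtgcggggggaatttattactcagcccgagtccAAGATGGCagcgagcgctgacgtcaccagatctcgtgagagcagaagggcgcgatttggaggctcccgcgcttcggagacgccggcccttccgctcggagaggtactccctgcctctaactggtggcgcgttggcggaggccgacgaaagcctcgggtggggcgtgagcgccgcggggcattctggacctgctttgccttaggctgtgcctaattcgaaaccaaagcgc
Both factors, ANG (chr14:21156673-21156972, strand +): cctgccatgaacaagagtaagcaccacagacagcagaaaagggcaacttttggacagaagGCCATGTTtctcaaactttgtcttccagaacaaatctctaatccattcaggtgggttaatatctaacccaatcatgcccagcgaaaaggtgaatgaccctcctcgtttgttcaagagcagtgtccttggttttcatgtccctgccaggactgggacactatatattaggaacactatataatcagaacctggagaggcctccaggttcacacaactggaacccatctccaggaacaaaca
INO80 alone, EN1 (chr2:119605175-119605474, strand -): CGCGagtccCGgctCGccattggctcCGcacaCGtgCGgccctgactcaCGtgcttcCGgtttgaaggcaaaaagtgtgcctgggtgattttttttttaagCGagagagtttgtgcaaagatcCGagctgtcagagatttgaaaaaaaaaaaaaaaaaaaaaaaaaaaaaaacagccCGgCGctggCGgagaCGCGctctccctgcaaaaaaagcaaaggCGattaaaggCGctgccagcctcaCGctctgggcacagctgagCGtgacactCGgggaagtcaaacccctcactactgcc
INO80 alone, SKOR1 (chr15:68117597-68117896, strand +): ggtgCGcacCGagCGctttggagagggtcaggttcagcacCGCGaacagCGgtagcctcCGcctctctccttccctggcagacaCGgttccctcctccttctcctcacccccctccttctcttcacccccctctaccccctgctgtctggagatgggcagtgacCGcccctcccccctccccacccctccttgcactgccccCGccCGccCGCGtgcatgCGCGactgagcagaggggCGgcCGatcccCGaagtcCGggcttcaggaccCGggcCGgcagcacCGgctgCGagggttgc
YY1 alone, CATSPERG (chr19:38826220-38826519, strand +): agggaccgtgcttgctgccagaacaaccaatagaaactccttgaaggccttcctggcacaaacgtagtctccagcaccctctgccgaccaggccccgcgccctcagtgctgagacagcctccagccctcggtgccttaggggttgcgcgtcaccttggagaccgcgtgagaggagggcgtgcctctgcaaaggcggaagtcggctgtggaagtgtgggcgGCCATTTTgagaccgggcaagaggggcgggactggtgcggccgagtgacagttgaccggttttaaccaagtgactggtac
YY1 alone, CCDC186 (chr10:115933913-115934212, strand -): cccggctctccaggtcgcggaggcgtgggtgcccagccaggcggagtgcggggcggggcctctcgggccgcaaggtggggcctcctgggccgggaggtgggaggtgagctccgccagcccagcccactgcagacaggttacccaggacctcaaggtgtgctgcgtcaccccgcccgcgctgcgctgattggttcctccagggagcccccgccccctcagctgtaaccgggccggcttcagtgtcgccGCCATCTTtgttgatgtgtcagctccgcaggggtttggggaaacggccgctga

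MGME1, a mitochondrial exonuclease gene, lies under an INO80 peak of 10856 bp that it shares with its divergent neighbour SNX5, and its motif begins at position -179. ANG encodes the secreted ribonuclease angiogenin, with a motif at position -190 in a window of 2 CpG. In both genes the motif was covered by an INO80 peak, a YY1 peak and an MCRS1 peak. EN1, the homeobox gene engrailed 1, and SKOR1, a corepressor gene of neurons, had INO80 peaks of 8686 and 7624 bp over windows of 21 and 23 CpG, and no YY1 or MCRS1 peak touched either window. CATSPERG encodes a subunit of the sperm calcium channel. Its motif, at position -30, was covered by a YY1 peak of 1836 bp. The motif of CCDC186, a gene of vesicle traffic, spans the start itself, beginning at position -3, and both a YY1 peak of 1118 bp and an MCRS1 peak covered it.

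INO80 and YY1 were found at largely the same genes. INO80 was at 12605 genes (63.7% of all) and YY1 at 12381 (62.6%). YY1 had a peak at 89.0% of the genes with INO80 (88.45 to 89.54%), against 16.2% of the genes without it (15.35 to 17.05%). Seen from the other side, INO80 was at 90.6% of the genes with YY1 (90.09 to 91.12%), against 18.7% of those without (17.85 to 19.62%). Where a gene had both, any INO80 peak and any YY1 peak at its starts overlapped by at least 1 bp at 98.1% of genes. Both factors were at the same start in 99.7%. The centres of the closest pair of peaks lay a median of 145 bp apart.

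Most genes with a single factor lay well past the 1000 bp limit for the other. From the INO80-alone genes the nearest YY1 peak was a median of 28540 bp away, and 114 of them (8.23%) had one between 1000 and 2000 bp. From the YY1-alone genes the nearest INO80 peak was a median of 31550 bp away, and 55 (4.73%) had one between 1000 and 2000 bp. Just outside the limit for YY1 were ETV2 at 1005 bp, HCRT at 1026 bp and PRM1 at 1027 bp, while CYP21A2 at 998 bp, NKAIN2 at 993 bp and RAB34 at 991 bp fell just inside it. For INO80, SLC17A7 and ZSCAN10 at 1013 bp and KLK15 at 1021 bp were just outside, and CPS1 at 993 bp, IFITM10 at 991 bp and MVP at 986 bp just inside. At the far end, the neuronal adhesion gene TENM4 had an INO80 peak of 1365 bp at its start (chr11:79150886-79152250) and no YY1 peak within 714474 bp. DIAPH2, a formin gene that shapes actin, had a YY1 peak of 363 bp (chrX:95939625-95939987) and no INO80 peak within 3951505 bp. Of the 10 YY1-alone genes farthest from INO80, 6 lie on chromosome X, among them FMR1, the fragile X gene, with a YY1 peak of 513 bp and the nearest INO80 peak at 2537578 bp.

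Peak width set the classes of the factors apart in different ways. INO80 peaks had a median width of 1121 bp at genes with both factors and 1098 bp at INO80-alone genes. YY1 peaks had a median of 970 bp at genes with both and 336 bp at YY1-alone genes. Among genes with INO80, the share with INO80 alone was 13.7% in the quintile of genes with the narrowest INO80 peaks, 8.78% in the middle quintile and 11.9% in the widest quintile (10.73 to 13.26%). Among genes with YY1, the share with YY1 alone was 33.6% in the narrowest quintile (147 to 510 bp) and 0.404% in the widest, with 2.87% in the middle. The narrowest quintile thus held 832 of the 1162 YY1-alone genes, while INO80-alone genes were spread over every quintile of INO80 width. With the wider 50% of every list, INO80 alone held 1321 genes and YY1 alone 3228. Each list was cut there at its own median width, 666 bp for INO80 and 287 bp for YY1. The centre of the INO80 peak lay a median of 69 bp downstream of the nearest start at genes with both and 129 bp downstream at INO80-alone genes, while the centre of the YY1 peak lay at 4 bp in genes with both and at -19 bp in YY1-alone genes.

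The other INO80 subunits, whose lists took no part in the sorting, followed the genes with both factors. A peak of a single subunit does not show that the whole complex was present. MCRS1 had a peak at 95.4% of genes with both (95.02 to 95.79%) and at 12.6% of INO80-alone genes (10.98 to 14.48%), a difference of 82.8 percentage points (80.9 to 84.48). It was at 46.1% of YY1-alone genes and 1.43% of genes with neither, against 58.1% of all genes. RUVBL2 was at 67.9% of genes with both, 2.67% with INO80 alone, 4.99% with YY1 alone and 0.465% with neither, against 39.1% of all. RUVBL1 was at 29.3% of genes with both, 0.433% with INO80 alone, 2.15% with YY1 alone and 0.0665% with neither, against 16.8% of all. Most INO80-alone genes therefore had no called peak of another mapped subunit, and YY1-alone genes more often had MCRS1 than INO80-alone genes did. The difference was present at every width of the INO80 peak: from the narrowest to the widest quintile of INO80 peaks, MCRS1 was at 89.6%, 97%, 97.6%, 96.4% and 96.3% of genes with both, and at 13%, 8.87%, 12.2%, 11.2% and 16.9% of INO80-alone genes.

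**Figure D1:**
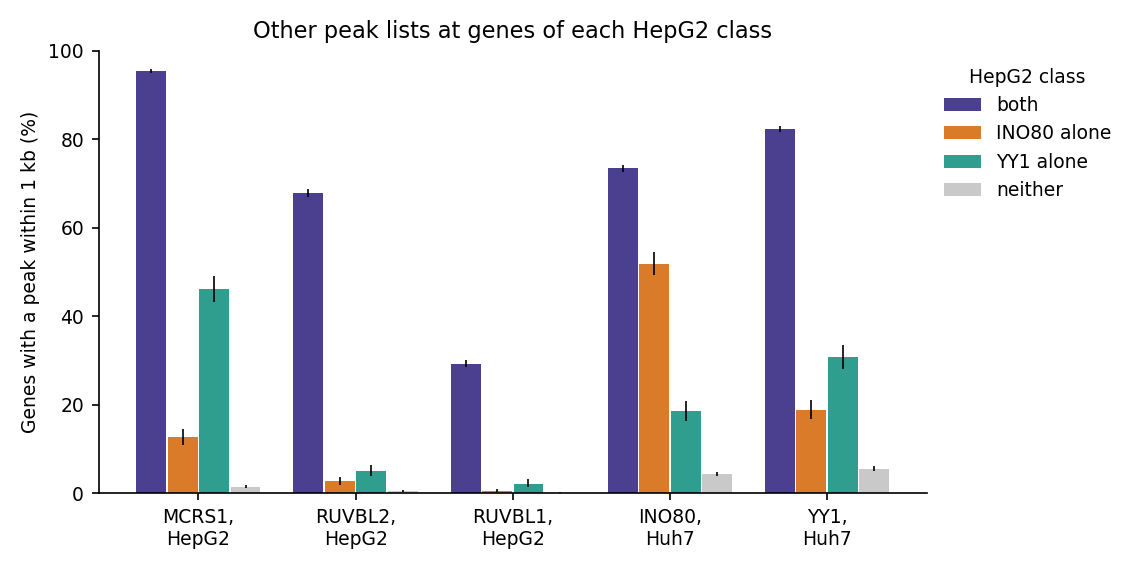
Share of genes with a peak within 1 kb of a start (y axis, percent) for 5 other peak lists (x axis), in each HepG2 class; bars are shares and lines their 95% Wilson intervals. MCRS1 stands at 95.4% of genes with both factors and 12.6% of INO80-alone genes, while INO80 in Huh7 stands at 73.5% and 51.9%.

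In Huh7 the same genes were measured from separate libraries of both factors. INO80 in Huh7 was at 73.5% of genes with both in HepG2 and at 51.9% of INO80-alone genes, a difference of 21.5 percentage points (18.76 to 24.26), against 47.7% of all genes. With the wider 50% of every list the difference was 9.675 points (6.77 to 12.56). It was at 18.5% of YY1-alone genes and 4.32% of genes with neither. YY1 in Huh7 was at 82.4% of genes with both, 18.8% with INO80 alone, 30.7% with YY1 alone and 5.53% with neither, against 51.5% of all. Of the 1386 INO80-alone genes, 508 (36.7%) were INO80 alone in Huh7 too, 617 (44.5%) had neither factor there, 212 had both and 49 had YY1 alone. Of the 1162 YY1-alone genes, 195 (16.8%) kept that class, 752 (64.7%) had neither, 162 had both and 53 had INO80 alone. Of the 11219 genes with both, 7480 (66.7%) had both again. The lists of Huh7 are shorter, with 15303 INO80 peaks and 21554 YY1 peaks against 23665 and 39293 in HepG2, and the part of list length in the lost genes was not tested. The chance of finding INO80 in Huh7 rose with the width of the HepG2 peak in both classes: from the narrowest to the widest quintile it was at 50%, 67.0%, 77.9%, 83.3% and 88.6% of genes with both, and at 27.1%, 44.4%, 56.6%, 63.2% and 73.4% of INO80-alone genes.

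**Figure D2:**
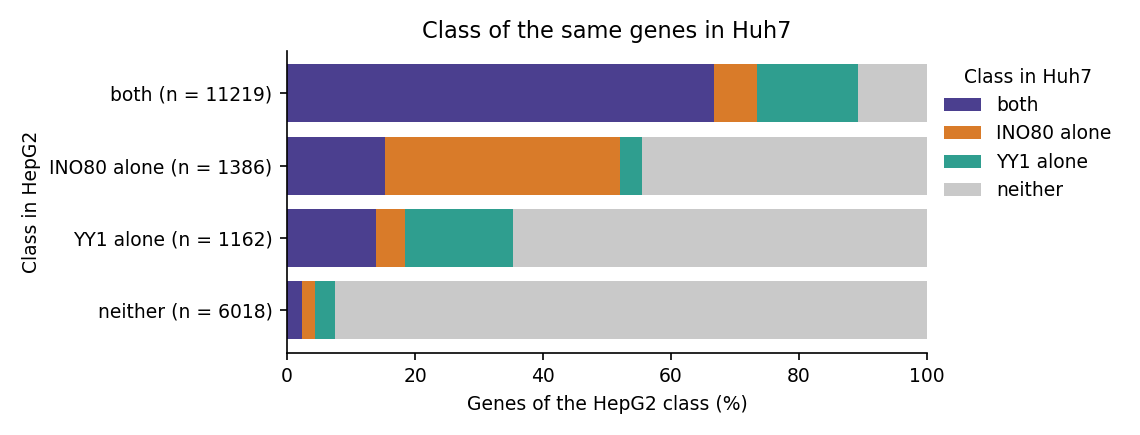
Share of the genes of each HepG2 class (rows, with the number of genes) that fall into each class in Huh7 (x axis, percent; colours). Of INO80-alone genes 36.7% were INO80 alone again, and of YY1-alone genes 16.8% were YY1 alone again, with 64.7% in neither.

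Gene families were put together from gene symbols, 99 in all with 4622 genes, and gathered into broader groups by what the genes do. Most genes of families that keep every cell running had both factors, where 56.7% of all genes did. The symbol patterns of these families also took in related copies, such as the USP17L and TAF11L genes, none of which had either factor in HepG2. Of 1325 genes in these families, 1130 (85.3%) had both, 15 (1.13%) INO80 alone, 57 (4.3%) YY1 alone and 123 (9.28%) neither. In 7 families every gene had both: all 66 spliceosomal and SR protein genes of RNA splicing, all 37 aminoacyl-tRNA synthetases, all 24 genes of a SWI/SNF remodeler list that takes in the related ISWI ATPases SMARCA1 and SMARCA5, all 10 subunits of the RNA exosome, all 10 of the anaphase-promoting complex, all 8 of the CCT chaperonin and all 8 cullins. Among the widest INO80 peaks in these families were those at the splicing factor genes SRSF3 (9417 bp, chr6:36560701-36570117) and SRSF2 (4172 bp), at the remodeler genes ARID1B (3561 bp) and SMARCA2 (3436 bp), at EXOSC8 of the exosome (2874 bp) and at TCP1 of the chaperonin (3229 bp). MCRS1 was at 1107 of the 1130 upkeep genes with both (98.0%), and 895 of them had both factors in Huh7.

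Members of upkeep families that had INO80 alone were few. Several of the 15 genes are forms known from special tissues: KIF1A (an INO80 peak of 2796 bp) and KIF5C (293 bp), kinesins of nerve cells, RAB6B (2244 bp), a neuronal form of a Golgi GTPase, EIF4E1B (1551 bp), an oocyte form of the cap-binding protein, and ATP6V1C2 (1539 bp), a vacuolar ATPase subunit of kidney and lung. The others were KIF19, RAB33A, RAB6C, RAB6D, FBXL7, UBE2QL1, DDX60 and the histone genes H1-3, H2AC25 and H2BC26. MCRS1 was at 1 of the 15. Mitochondrial and cytosolic ribosomal proteins had no INO80-alone gene. YY1 alone was less frequent among upkeep genes (57 genes, 4.3%) than among all genes (5.87%). The 57 included 4 of 33 RNA polymerase subunit genes (12.1%): POLR1E (a YY1 peak of 877 bp), POLR3GL (546 bp), POLR2F (398 bp) and POLR2K (339 bp). Replication genes, at 3 of 41 (7.32%), were near the share of all genes, with RFC4 (794 bp), POLD4 (772 bp) and POLA1 (659 bp). MCRS1 was at 35 of the 57 (61.4%).

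The genes of the INO80 complex itself belong to the same pattern. Of 16 subunit genes, 15 had both factors, with INO80 peaks of 3100 bp at YY1, 1435 bp at RUVBL1, 1199 bp at INO80 and 177 bp at MCRS1. RUVBL2 was the exception, with a YY1 peak of 898 bp at its start (chr19:49496453-49497350), an MCRS1 peak, and the nearest INO80 peak at 24073 bp. It was YY1 alone in Huh7 too.

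Of the gene groups, developmental genes held the most INO80-alone genes. Of 488 genes in 13 families of lineage transcription factors and signals, 122 (25%) had both, 143 (29.3%) INO80 alone, 23 (4.71%) YY1 alone and 200 (41.0%) neither, where INO80 alone takes 7.01% of all genes. INO80-alone genes outnumbered YY1-alone genes in 11 of the 13 families. WNT ligands, secreted signals of tissue patterning, led with 9 of 19 (47.4%): WNT3A (an INO80 peak of 3331 bp, chr1:228193850-228197180), WNT7B (3048 bp), WNT9A (2848 bp), WNT5A, WNT6, WNT10B, WNT10A, WNT5B and WNT4. No WNT gene had YY1 alone, and 5 had both, where WNT1 and WNT7A had YY1 peaks of 197 and 157 bp beside INO80 peaks of 3815 and 2859 bp. Homeobox and PAX genes outside the HOX clusters followed with 54 of 131 (41.2%), among them EN1, NKX2-2 (7297 bp), a factor of the neural tube and pancreas, and LHX4 (7258 bp), a factor of the pituitary. Basic helix-loop-helix lineage genes came next with 20 of 54 (37.0%), led by BHLHE23 (5472 bp), HES7 (5131 bp), part of the segmentation clock, and TWIST2 (3626 bp). Of the HOX genes, which set position along the body axis, 13 of 39 (33.3%) had INO80 alone, led by HOXA13 (2849 bp), HOXB7 (2052 bp) and HOXA7 (1994 bp). HOXA4, HOXA5, HOXD1, HOXC9 and HOXA10 were among those with both, and HOXC5, HOXB5 and HOXC4 had YY1 alone. Protocadherins went the other way, with INO80 alone at 4 of 66 genes (6.06%), YY1 alone at 5 and neither at 54. Semaphorins had 2 genes in each single-factor class.

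INO80 peaks at developmental genes were wide. Their median width was 1621 bp at the INO80-alone genes of this group and 2008 bp at those with both, against 1098 and 1121 bp over all genes of the same classes. YY1 peaks at the developmental genes with both had a median of 706 bp, against 970 bp over all such genes. MCRS1 was at 11 of the 143 (7.69%). In Huh7, INO80 was at 69 of the 143 (48.3%) and YY1 at 26 (18.2%), and 45 were INO80 alone there as well. HES7, HMX2 and ATOH8 had INO80 alone in both lines together with an MCRS1 peak in HepG2.

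Genes of nerve and muscle signalling and of the matrix also had INO80 alone more often than the 7.01% of all genes. Among 199 genes of ion channels, neurotransmitter receptors and synaptotagmins, 54 (27.1%) had INO80 alone, 39 had both and 14 had YY1 alone. Potassium channels made up most of these, with 34 of 95 genes (35.8%), led by KCNJ12 (3234 bp), an inward rectifier of heart and muscle, KCNK13 (3202 bp) and KCND3 (2779 bp). No GABA receptor gene had both factors, and 4 of 19 had INO80 alone. INO80 in Huh7 was at 30 of the 54 (55.6%), YY1 in Huh7 at 1 and MCRS1 at 1. Of 130 matrix and adhesion genes, 28 (21.5%) had INO80 alone, 33 both and 6 YY1 alone. The claudins of tight junctions differed, with INO80 alone at 1 of 24 (4.17%) and YY1 alone at 2 (8.33%). Collagens, the fibres and sheets of the matrix, had INO80 alone at 14 of 44 genes (31.8%). The basement membrane genes COL4A1 and COL4A2 share an INO80 peak of 1835 bp between their divergent starts, COL4A3 and COL4A4 share one of 1738 bp, and COL14A1 had one of 1956 bp.

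**Figure D3:**
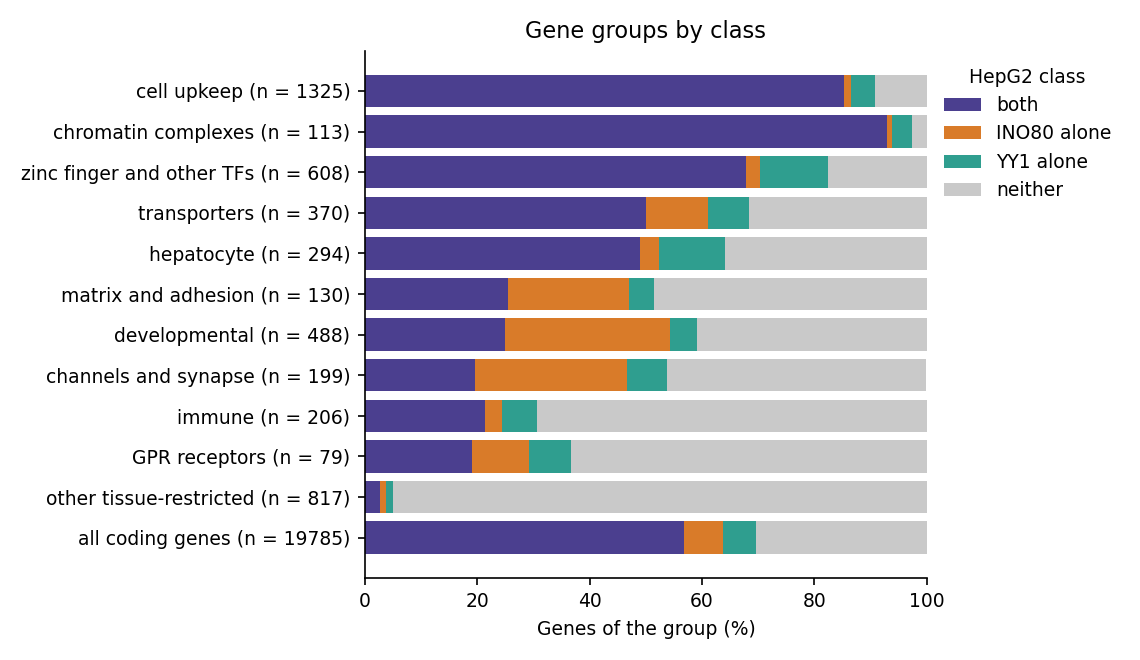
Share of the genes of each group in each HepG2 class (x axis, percent; colours), with the number of genes in each group and all coding genes in the last row. INO80 alone takes 29.3% of developmental and 27.1% of channel and synapse genes, and 1.13% of cell upkeep genes.

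Hepatocyte genes, here the members of families drawn by symbol pattern, were divided by what they do. The patterns took in whole families, with members such as CYP11B1, SERPINB3 and MT4, so a member need not be a gene active in hepatocytes. Of 294 genes, 144 (49%) had both, 10 (3.4%) INO80 alone, 34 (11.6%) YY1 alone and 106 (36.1%) neither. Cholesterol and fatty acid synthesis was the most often bound by both, at 30 of 34 genes (88.2%), among them FASN (an INO80 peak of 4066 bp). The sterol enzymes NSDHL and EBP had YY1 alone (631 and 595 bp), and both lie on chromosome X. INSIG1 and ME1 had neither. Apolipoproteins had both at 10 of 14 genes, led by APOB (9802 bp), APOA2 (4751 bp) and APOA1 (4259 bp). APOA4, in the cluster of APOA1, had YY1 alone (825 bp), with INO80 1976 bp away. Peak lists hold no expression, so the liver label of the line could not be checked with them. Of the transcription factors that define hepatocytes, 17 of 20 (85.0%) had both, near the 85.3% of upkeep genes. Their INO80 peaks ran from XBP1 (5743 bp) to HNF4G (1384 bp). NR5A2 had INO80 alone (4029 bp, chr1:200008118-200012146) with YY1 1416 bp away and both factors in Huh7, NR1H4, the bile acid receptor, had INO80 alone (180 bp), and CREB3L3 had YY1 alone (189 bp).

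Of the families with plasma proteins, 3 were among the 6 with the highest share of YY1 alone, while other plasma and secreted hepatocyte proteins (3 of 34, 8.82%) and apolipoproteins (1 of 14, 7.14%) were nearer the 5.87% of all genes. Coagulation and fibrinolysis genes had YY1 alone at 6 of 25 (24.0%): F8 (961 bp, chrX:154114520-154115480, at a start other than its reference start), PROZ (490 bp), FGA (400 bp), the antithrombin gene SERPINC1 (298 bp), F12 (187 bp) and KLKB1 (159 bp). A further 11 had both, among them F2, the prothrombin gene (an INO80 peak of 2838 bp), and 7 had neither. The 3 fibrinogen genes, whose products form 1 protein, fell into 3 classes: FGG had both (INO80 2132 bp, YY1 562 bp), FGA had YY1 alone with INO80 1083 bp away, just past the limit, and FGB had neither, with INO80 at 2867 bp and YY1 at 3245 bp. Complement had YY1 alone at 5 of 24 (20.8%): C8A (362 bp), C1S (274 bp), MASP1 (259 bp), CFI (246 bp) and C1QC (176 bp). C3 (1893 bp), CFB (1621 bp) and C2 (1416 bp) had the widest INO80 peaks of the 9 complement genes with both. Serpins, which include proteins that stay in the cell, had YY1 alone at 6 of 34 (17.6%): the intracellular collagen chaperone SERPINH1 (1064 bp), the cortisol carrier SERPINA6 (746 bp), SERPINB8 (626 bp), SERPINC1 again, SERPINA12 (220 bp) and the thyroxine carrier SERPINA7 (199 bp). No serpin or complement gene had INO80 alone. The coagulation, complement and serpin families are small, so a few genes set their shares, and SERPINC1 counts in both coagulation and serpins.

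The 34 hepatocyte genes with YY1 alone had narrow peaks, as YY1-alone genes did in general, and poor CpG. Their YY1 peaks had a median width of 298.5 bp, against 798 bp at the 144 hepatocyte genes with both, and their start windows of 300 bases held a median of 4 CpG, against 15 with both and 3 with neither. MCRS1 was at 12 of the 34 (35.3%) and at 138 of the 144 (95.8%). YY1 in Huh7 was at 4 of the 34 (11.8%) and INO80 at 1, and of the 144 with both, INO80 in Huh7 was at 78 (54.2%) and YY1 at 76 (52.8%). Over all genes with both, the shares were 73.5% and 82.4%. Over all YY1-alone genes, YY1 peaks had a median width of 336 bp and start windows a median of 19 CpG. MCRS1 was at 46.1% of all YY1-alone genes, YY1 in Huh7 at 30.7% and INO80 in Huh7 at 18.5%. The 10 hepatocyte genes with INO80 alone included CYP26B1 (7180 bp) and CYP26A1 (3515 bp), which degrade retinoic acid. The others were CYP4F22, CYP2S1, CYP4F11, ALDH1A3 (1988 bp), which makes retinoic acid, TFPI, and the metallothioneins MT1A, MT1M and MT3. Metallothioneins are near-identical copies, so reads at their starts may not have been placed with certainty.

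Families at the top of YY1 alone outside the liver were small as well. Crystallins, the lens proteins, had 4 of 18 (22.2%): CRYBG2 (389 bp), CRYBB2 (292 bp), CRYGC (268 bp) and CRYAA (176 bp). HLA genes, which present antigens, had 4 of 19 (21.1%): HLA-C (607 bp), HLA-F (542 bp), HLA-E (323 bp) and HLA-DMA (163 bp). The Fanconi genes of DNA crosslink repair had 2 of 10: FANCM (941 bp), with INO80 1022 bp away, and FANCB (182 bp). With so few members, 1 gene moves such a share by several points.

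**Figure D4:**
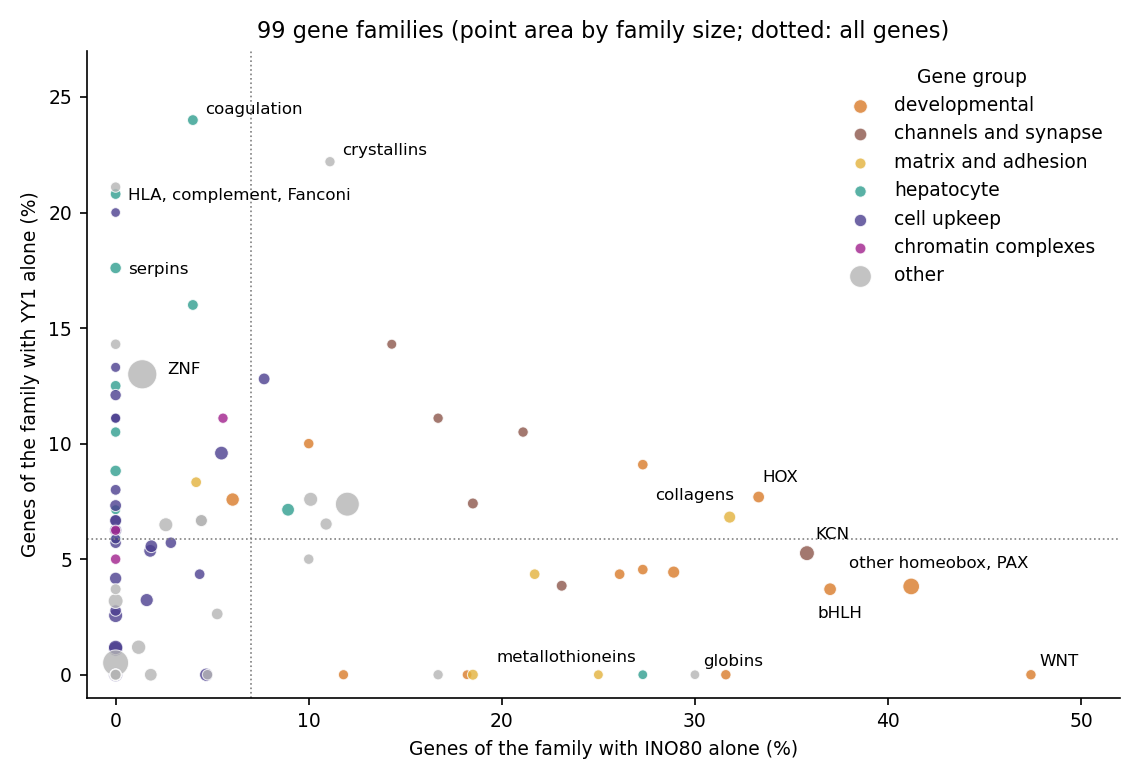
Each point is 1 of 99 gene families, placed by its share of genes with INO80 alone (x axis, percent) and with YY1 alone (y axis, percent), with area by family size and colour by group. Dotted lines mark the shares over all genes, 7.01% and 5.87%; WNT ligands lie at 47.4% on the x axis and coagulation genes at 24.0% on the y axis.

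Zinc finger genes of the ZNF series, the largest family, had YY1 alone more often than the 5.87% of all genes. Of 508, 343 had both (67.5%), 7 INO80 alone (1.38%), 66 YY1 alone (13%) and 92 neither (18.1%). On chromosome 19, where many ZNF genes lie in clusters of related copies, 42 of 246 had YY1 alone (17.1%), against 24 of 262 on the other chromosomes (9.16%) and 110 of the 1187 other genes of chromosome 19 (9.27%). In Huh7 the shares were close together, with YY1 alone at 15.4% of the ZNF genes of chromosome 19, 14.5% of those elsewhere and 14.3% of the other genes of chromosome 19. The widest YY1 peaks among them were 1286 bp between the divergent genes ZNF449 and ZNF75D on chromosome X and 1253 bp at ZNF473. The 7 with INO80 alone were ZNF536, ZNF558, ZNF804A, ZNF469, ZNF365, ZNF330 and ZNF888.

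Of the 6018 genes with neither factor, 1779 belong to a listed family, and 776 of those are in families restricted to other tissues. A further 123 are in upkeep families, 117 are transporters, 107 transcription factors of the lists and 106 hepatocyte genes. The 123 include 31 of 78 USP genes, mostly USP17L copies. They also include 14 of 36 genes of TATA-binding protein associated factors, mostly TAF11L copies. In Huh7, YY1 was at 15 of these 31 USP genes and at 0 of these 14 genes, and INO80 was at 0 of either set. All 46 defensins, 30 cornified envelope genes of skin, 27 killer and leukocyte immunoglobulin-like receptors, 24 PRAME genes and 17 type I interferons had neither, and so did 388 of 391 olfactory receptors. OR1F1 was the olfactory receptor with both (an INO80 peak of 1736 bp), and OR1E2 and OR1E1 had YY1 alone. Several of these families are close copies in tandem, where reads may not be placed uniquely, and the part of mapping in their empty starts was not tested.

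Classes differed in the base composition of their starts. The median start window of 300 bases held 28 CpG in genes with both, 28 with INO80 alone, 19 with YY1 alone and 5 with neither, and its GC content was 67.0% with both, 70.0% with INO80 alone, 62.0% with YY1 alone and 52.7% with neither. Across quintiles of all genes by CpG, from the poorest to the richest, the share with INO80 alone was 2.42%, 6.93%, 6.63%, 8.61% and 10.9%. The share with YY1 alone was 5.04%, 9.31%, 6.98%, 4.91% and 2.71% along the same quintiles, and that with both was 9.23%, 44.2%, 74.9%, 78.4% and 80.6%. INO80 alone was thus most frequent among the starts richest in CpG, and YY1 alone among those of the second poorest quintile. A coding gene on the opposite strand starting within 1000 bp was found at 17.4% of genes with both, 2.09% with INO80 alone, 8.43% with YY1 alone and 1.58% with neither, against 11% of all.

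Motifs in the start windows also set INO80-alone genes apart. The YY1 core motif, GCCATNTT on either strand, was in the window of 1304 genes with both (11.6%), 23 with INO80 alone (1.66%), 60 with YY1 alone (5.16%) and 211 with neither (3.51%), against 8.08% of all genes. YY1 alone exceeded INO80 alone by 3.50 percentage points (2.108 to 5.033), and by 7.212 points with the wider 50% of every list. The letters CCGGAAG, a form bound by ETS factors, or their reverse complement were in 20.5% of genes with both, 3.03% with INO80 alone, 16.4% with YY1 alone and 3.86% with neither, against 14% of all. GGGCGG or its complement, the GC box, was in 76.6% with both, 74.2% with INO80 alone, 59.6% with YY1 alone and 30.3% with neither, against 61.3% of all. CCAAT or its complement was in 35.9% with both, 28.6% with INO80 alone, 39.6% with YY1 alone and 37.0% with neither, against 36.0% of all. TATAAA from 40 to 15 bases before the start was in 1.93% with both, 4.11% with INO80 alone, 2.5% with YY1 alone and 7.86% with neither, against 3.92% of all. None of these letter strings contains another, matches of different strings can overlap, and a match describes the letters and not a bound site.

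The YY1 motif was most frequent just inside the start of genes with both factors. In each bound class most copies there read AANATGGC on the strand of the gene. In genes with both, 937 motifs began in the first 100 bases from the start, 83.5 per 1000 genes. Of these, 760 (81.1%) read AANATGGC on the strand of the gene, and the rest GCCATNTT. INO80-alone genes had 11 such motifs (7.94 per 1000 genes, 8 as AANATGGC) and YY1-alone genes 31 (26.7 per 1000 genes, 21 as AANATGGC). Genes with neither had 111 (18.4 per 1000, of which 46.8% read AANATGGC on the strand of the gene). Within 201 bases about the peak centre, the motif was in 6.15% of the YY1 peaks at YY1-alone genes (4.874 to 7.74%) and in 7.01% of those at genes with both (6.519 to 7.527%), intervals that overlap. Neither exceeded the 7.04% of windows about the starts of all coding genes, most of which had both factors. The lists hold no summits, so a window about a peak centre lies at the middle of the whole peak and misses the rest of a wide one. YY1 peaks had a median width of 970 bp at genes with both and 336 bp at YY1-alone genes. The windows thus covered unlike parts of the peaks, and motifs elsewhere in a peak were not counted. Windows about the starts of genes with neither factor had the motif in 2.61% (2.236 to 3.044%). YY1 peaks that were the widest at no gene had the motif in 8.84%. It was in 0.668% of the INO80 peaks at INO80-alone genes, against 5.72% of those at genes with both.

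**Figure D5:**
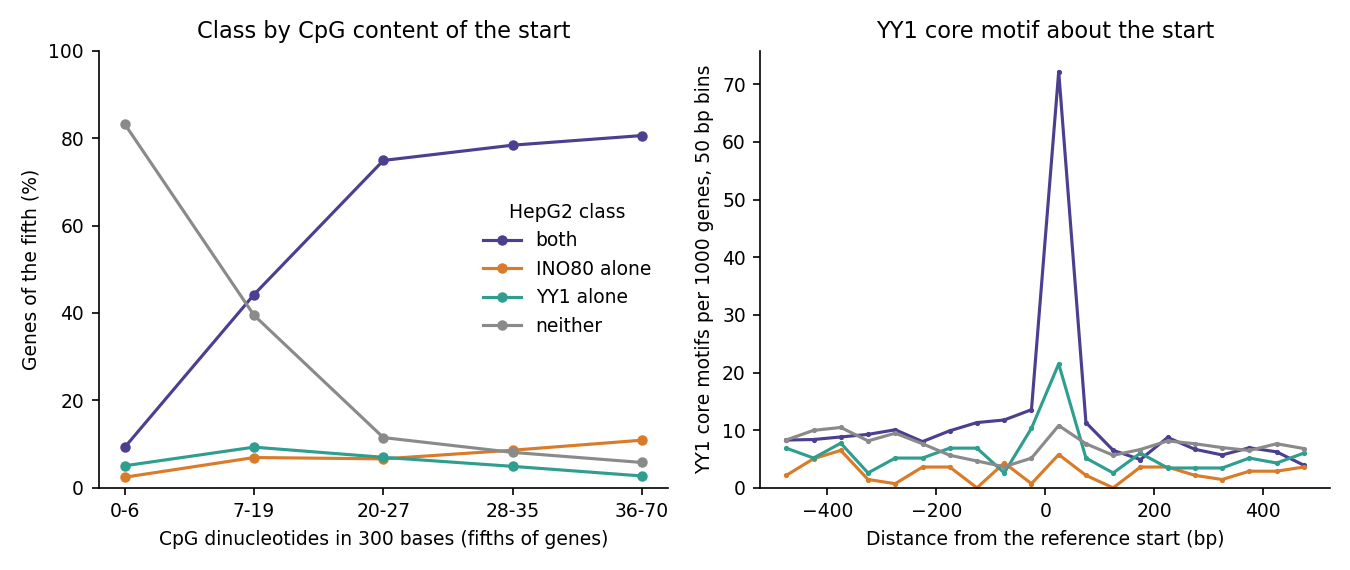
Left, share of genes in each HepG2 class (y axis, percent) across quintiles of genes by CpG in the 300 bases about the start (x axis). Right, YY1 core motifs per 1000 genes (y axis) in bins of 50 bp by distance from the reference start (x axis, bp); genes with both factors reach 72.2 per 1000 genes in the bin from the start, and INO80-alone genes stay below 10.

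Chromosome X stood apart from the autosomes. Of its 862 genes, 165 had both (19.1%), 24 INO80 alone (2.78%), 173 YY1 alone (20.1%) and 500 neither (58.0%). Of 18877 autosomal genes, 58.5% had both, 7.2% INO80 alone, 5.22% YY1 alone and 29% neither. Across single autosomes, YY1 alone ran from 1.88% on chromosome 13 to 10.6% on chromosome 19, and INO80 alone from 4.12% on chromosome 19 to 11.4% on chromosome 4. In Huh7, YY1 alone took 10.9% of the genes of chromosome X and 11.2% of autosomal genes. Both factors were at 8.7% of the X genes in Huh7, against 42.0% of autosomal genes, and neither was at 78.5%, against 39.3%. The YY1-alone genes of X had YY1 peaks with a median of 419 bp, against 323 bp at those of the autosomes. MCRS1 was at 35 of the 173, against 499 of the 985 autosomal ones, and the 173 hold the widest-peaked HMGB3 (1772 bp), a chromatin protein gene.

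The 10 widest peaks of each single-factor class were taken with 1 gene per peak. For INO80 alone they were at EN1, SKOR1, NFATC1 (7524 bp), NKX2-2, LHX4, CYP26B1, PDGFA (7005 bp), MN1 (5893 bp), UNCX (5776 bp) and BCL11B (5715 bp), none with MCRS1, RUVBL1 or RUVBL2 within 1 kb of a start. In Huh7, 4 of these 10 genes had both factors, 4 had INO80 alone and 2 had neither. For YY1 alone they included those at GAL3ST2 (2718 bp), CATSPERG, the kinase gene CSK (1828 bp), HMGB3, HMG20B (1758 bp), ZSCAN5A (1579 bp), TRIM62 (1544 bp), CFAP97D1 (1509 bp) and the sterol uptake gene NPC1L1 (1406 bp). Of the 9 genes named, MCRS1 was at 6, and in Huh7 2 of them had both, 1 had INO80 alone, 2 had YY1 alone and 4 had neither.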

How the data were processed

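For every factor in a line the authors deposited a single filtered peak list on hg19. Its only numbers are the start and end of each peak, with no signal, score or p. Tools named in the submitters' processing notes, without versions, are MACS2, Bowtie2, bedtools, SAMtools and deepTools. How replicate libraries entered the peak calling is not stated there. The narrowest peak of every list spans 147 bp. The lists of INO80 and YY1 in HepG2 cover 22.4 and 20.6 Mb.

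Gene starts were read from GENCODE release 44, in its GRCh37 version (the sequence of hg19), with a gene defined by its symbol. The reference start was the canonical transcript's, or the outermost start for 281 genes without one, and 4 windows with an unknown base were left out of sequence counts. Start windows describe the reference start, while a peak can lie at another start, as at F8, TFPI, C2 and HNF4G. Shares were computed in Python 3.11.15 with pandas 2.3.3, numpy 2.4.6 and pysam 0.24.0, and the sorting rule was tested on simulated peaks. Genes to name were the 10 widest peaks per class, the 10 genes farthest from the absent factor, the 6 leading families per class and the hepatocyte lists. Printed start regions leave out chromosome 8. A few genes that these rules name are not reported here. Members, families and lists were chosen with earlier results of these data known, and the symbol patterns of 4 families were narrowed after their members were seen. The fly spike-in, histone and input libraries were not used here.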

Additional observations from a re-analysis of the deposited data

How the results depend on the processing

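Each of 10 results (the 4 class counts, the 3 differences of shares, and 3 counts of developmental and upkeep genes) was recomputed under 9 alternatives, and 83 of the 90 values stayed within 1.5 times the count, or within the interval of the difference. No difference changed sign. The other 7 were these. With the wider 50% of every list, YY1 alone took 3228 genes, MCRS1 with both exceeded INO80 alone by 85.01 percentage points, INO80 in Huh7 by 9.675 points, and the YY1 motif in YY1 alone exceeded INO80 alone by 7.212 points. INO80 alone held 1321 genes there, and genes with both numbered 8101. Because each list was cut at its own median width, INO80 peaks were kept from 666 bp and YY1 peaks from 287 bp. The part of these unlike cutoffs in the changes was not tested. With only the 23665 widest YY1 peaks, as many as the INO80 list holds, the MCRS1 difference was 76.75 points and upkeep genes with INO80 alone numbered 26. Without chromosomes 2, 14, 16, 17 and 20, which are gained in HepG2, they numbered 9, with fewer genes counted.

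Developmental genes with INO80 alone ranged from 103 to 165 over the alternatives, the lowest without those chromosomes. No paired analysis was possible because each factor has 1 list per line and no result comes from a test over samples, and for the same reason no replicate could be left out. Depth limits the absence of a peak: a gene without one may hold the factor below the caller's threshold.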
